A study of Mus musculus with 2 samples.

Results

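Chromatin contacts of a viewpoint beside the Jun promoter, measured by 4C-seq (circularised chromosome conformation capture read out by sequencing), were used to describe a distal stretch of mouse chromosome 4 that holds Hook1 and the Cyp2j gene cluster. The stretch runs from 900 to 2000 kb on the higher-coordinate side of the viewpoint, positions chr4:95621073-96721073 of genome build mm9. Its members are the ends of DpnII fragments centred there whose sequence occurs once in the genome: 3317 ends on 1971 fragments, of 496746 such ends on chromosome 4. The near part, from 900 to 1200 kb, held 887 of these ends and the far part, from 1200 to 2000 kb, held 2430. The members were chosen by position and single occurrence, and the rule did not use their reads. Earlier results of these data were known when it was set.

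The study holds 1 library with a viewpoint at Jun and 1 with a viewpoint at Ccl2, a chemokine gene on chromosome 11. Both come from primary bone marrow-derived macrophages of C57BL/6 mice, labelled UT, and the labels name no agent and no altered gene. Bone marrow cells (from C57B6/Jhsd mice, in the spelling of the growth protocol) were cultured for 6 days with L929 conditioned medium, and the label gives day 7 of differentiation. The labels used here do not state the mice's age or sex, or whether mice were pooled. There was 1 library per viewpoint, so there is no test between samples and each value describes a single library. The Jun library held 1098887 reads on unique ends farther than 5 kb from the viewpoint, and the Ccl2 library, used only for comparison, 901507. Of all unique ends that far out, 1.91% had at least 1 read in the Jun library and 1.92% in the Ccl2 library, and these shares are the background for what follows. They also count ends nearer the viewpoint than the stretch. Of 9507 such ends with a read in the Jun library, 1227 lay in the gene Fggy, at 503 to 873 kb.

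In 4C-seq, DNA fragments held close together by cross-links are joined by ligation, and those joined to the viewpoint are amplified outwards from it. A read on a fragment end thus comes from a ligation to the viewpoint, and a single ligation can give many reads. Contact frequency generally falls with distance and can fall steeply at the edge of a chromatin domain. Jun encodes the c-Jun protein of AP-1, a transcription factor whose genes respond within a short time to many stimuli. Hook1 encodes an adaptor that links cargo to microtubule motors. The Cyp2j genes encode cytochrome P450 enzymes, many of which turn arachidonic acid into epoxides, and they arose by local duplication, so their sequences resemble each other.

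The genes could be placed along the stretch through the restriction sites of their promoters. The annotation is of build GRCm38.p6 and the reads are in mm9, so DpnII sites (GATC, the same on both strands) were located in the RefSeq promoter sequences, 250 bases before to 50 after each gene's start, of the genes around Jun. All 26 sites, in promoters of 15 genes from -497 to 1733 kb relative to the viewpoint, fell on a fragment edge of the file at 1 constant shift, with a largest mismatch of 7.5 bp. The next best shift within 30 kb matched 9 sites. Of the 26 sites, 5 lie beyond 800 kb. At these sites distances in GRCm38.p6 thus held in mm9, and gene spans are given as distances from the viewpoint. Past the last site, at 1733 kb, the shift was not checked. Of the 32851 promoter entries of the table, 48.0% hold GATC and 35.8% hold GTAC, the site of the second cutter.

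The sequences of a few promoters are given here. Those of Hook1 and Cyp2j13 are shown because ends around their starts had reads, and that of Cyp2j6 and the sites at the start of Cyp2j5 because the nearby ends had none. They are RefSeq sequences of GRCm38.p6 (coordinates of that build), written 5′ to 3′ along the gene. They cover the 250 bases before the start, except Cyp2j5, which runs from its GTAC to its GATC across the start. Capitals mark GATC and GTAC, and Cyp2j13 holds neither. No end adjoining a printed GATC had a read, that of Hook1 included.
Hook1, chr4:95967129-95967378, plus strand: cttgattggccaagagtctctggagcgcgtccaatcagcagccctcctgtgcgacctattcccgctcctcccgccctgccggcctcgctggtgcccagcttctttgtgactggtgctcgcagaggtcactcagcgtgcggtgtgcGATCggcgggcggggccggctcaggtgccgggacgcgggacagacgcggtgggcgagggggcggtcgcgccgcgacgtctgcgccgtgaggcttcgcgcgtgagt
Cyp2j13, chr4:96077541-96077790, minus strand: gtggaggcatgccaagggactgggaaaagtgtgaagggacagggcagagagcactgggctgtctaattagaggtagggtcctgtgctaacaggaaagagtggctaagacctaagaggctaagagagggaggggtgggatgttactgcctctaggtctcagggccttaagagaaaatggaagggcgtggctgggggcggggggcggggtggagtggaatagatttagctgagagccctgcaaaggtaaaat
Cyp2j6, chr4:96553652-96553901, minus strand: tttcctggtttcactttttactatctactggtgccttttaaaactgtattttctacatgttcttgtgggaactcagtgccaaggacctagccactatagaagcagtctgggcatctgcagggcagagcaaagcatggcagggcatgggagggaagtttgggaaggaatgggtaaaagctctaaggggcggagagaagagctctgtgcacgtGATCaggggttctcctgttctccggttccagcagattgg
Cyp2j5, chr4:96664115-96664128, minus strand: GTACttggaaGATC
Lengths between sites can be compared as well. The DpnII sites on either side of the Hook1 start are 625 bases apart by the promoter sequences, and the fragment there in the file is 625 bp long. Both sites are among the 26 already matched, so this length follows from the placement and is not separate evidence for it. The GTAC of Cyp2j5 begins 10 bases from the start of its GATC, and the file gives 10 bp to the second cutter for that end.

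By this placement the near part holds more than Hook1. Hook1 spans 913 to 971 kb, and the lncRNA gene 9530080O11Rik starts beside it and runs the other way, to 905 kb. Cyp2j13 (988 to 1023 kb), Cyp2j12 (1045 to 1087 kb) and Cyp2j7 (1141 to 1182 kb) lie in the near part as well, and Cyp2j15-ps spans the boundary at 1200 kb. The far part holds Cyp2j11, Cyp2j14-ps, Cyp2j8, Cyp2j6, Cyp2j9 and Cyp2j5, the last reaching 1610 kb, and then Gm12695. The cluster thus has 10 members, of which the table gives 7 as protein-coding and 3, Cyp2j7 among them, as pseudogenes. The next protein-coding gene after Gm12695, Nfia, starts at 2524 kb by the same shift, outside the stretch.

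The first question was how contacts in the near part compared with those in the far part. In the near part 125 of 887 ends had a read, 14.1% (exact binomial 95% interval 11.9 to 16.6%), and in the far part 51 of 2430, 2.10% (1.57 to 2.75%). The intervals do not overlap, and the share was 6.71 times as high in the near part (Katz 95% interval 4.89 to 9.21). The far part's interval includes the 1.91% of the chromosome as a whole, which also counts ends nearer the viewpoint. Reads followed the same order, with 6605 reads or 22.0 per kb in the near part and 2188 or 2.74 per kb in the far part, a ratio of 8.05. Unique ends were about equally dense, at 2.96 and 3.04 per kb. These intervals cover counting error only: neighbouring ends are not independent, and the labels name no molecular identifiers, so reads may be PCR duplicates. Counting any value above 0 as a read, including values that round to 0, lowered the ratio of shares to 3.96.

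The parts differed in how many ends had a read far more than in reads per such end. The median end with a read held 32 reads in the near part (quartiles 12 and 74) and 25 in the far part (11.5 and 59), while the highest held 340 and 213. At 700 to 900 kb, just before the stretch, 81.5% of 782 ends had a read and the median was 95 reads. Counted by fragment, 110 of 536 in the near part (20.5%, 17.2 to 24.2%) and 51 of 1435 in the far part (3.55%, 2.66 to 4.65%) had a read.

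**Figure D1:**
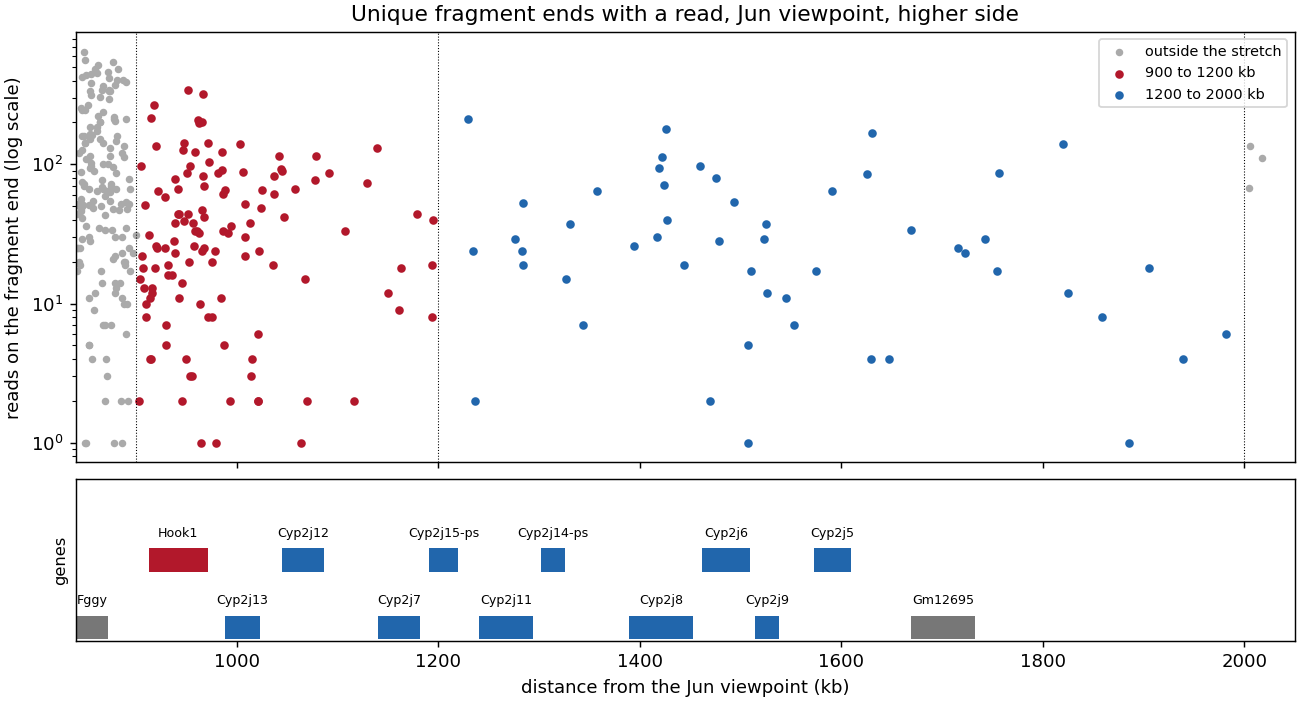
Each point is a unique fragment end with a read in the Jun library, at its distance from the viewpoint in kb, with its reads on a log scale; bars below show gene spans. Ends are crowded over Hook1 and thin out past Cyp2j13, and the scattered ends of the far part reach 213 reads.

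The contacts of the near part were not spread over it. From 900 to 1000 kb, which takes in Hook1, reads lay on 86 of 254 ends (33.9%, 28.1 to 40.0%). Between 1000 and 1080 kb it was 27 of 263 (10.3%, 6.88 to 14.6%). Between 1080 and 1200 kb it was 12 of 370 (3.24%, 1.69 to 5.60%), an interval that overlaps that of the far part. The division at 1080 kb, where the first window of 20 kb at or below the chromosome's share begins, was chosen after the values were seen. The first 180 kb of the near part held 92.8% of its reads. At the lower edge of the stretch, 56.3% of 64 ends had a read from 880 to 900 kb and 30.3% of 66 from 900 to 920 kb. At the upper edge, 1 of 74 ends had a read from 1980 to 2000 kb and 3 of 78 from 2000 to 2020 kb.

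In windows of 20 kb, the highest shares of the near part were 13 of 26 ends from 920 to 940 kb, 38.2% from 960 to 980 kb (21 of 55), 33.9% from 940 to 960 kb (21 of 62), 30.3% from 900 to 920 kb and 24.4% from 980 to 1000 kb (11 of 45). The intervals of these 5 windows overlap one another, and their order was not tested. In the far part no window had more than 4 ends with a read and 11 of 40 had none. Its highest were 1420 to 1440 kb, within Cyp2j8, with 4 of 62 ends (6.45%, 1.79 to 15.7%), and 1220 to 1240 kb, between Cyp2j15-ps and Cyp2j11, with 3 of 48 (6.25%). They were followed by 1320 to 1340 kb (2 of 41 ends), 1520 to 1540 kb (3 of 63) and 1460 to 1480 kb (3 of 71). In steps of 100 kb, the share in the far part was highest from 1400 to 1500 kb, over Cyp2j8 and part of Cyp2j6 (12 of 289 ends, 4.15%, 2.16 to 7.14%), and lowest from 1900 to 2000 kb, where no gene is annotated (3 of 336, 0.893%, 0.185 to 2.59%). These intervals overlap, which does not show equal shares, and the order of the steps was not tested.

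**Figure D2:**
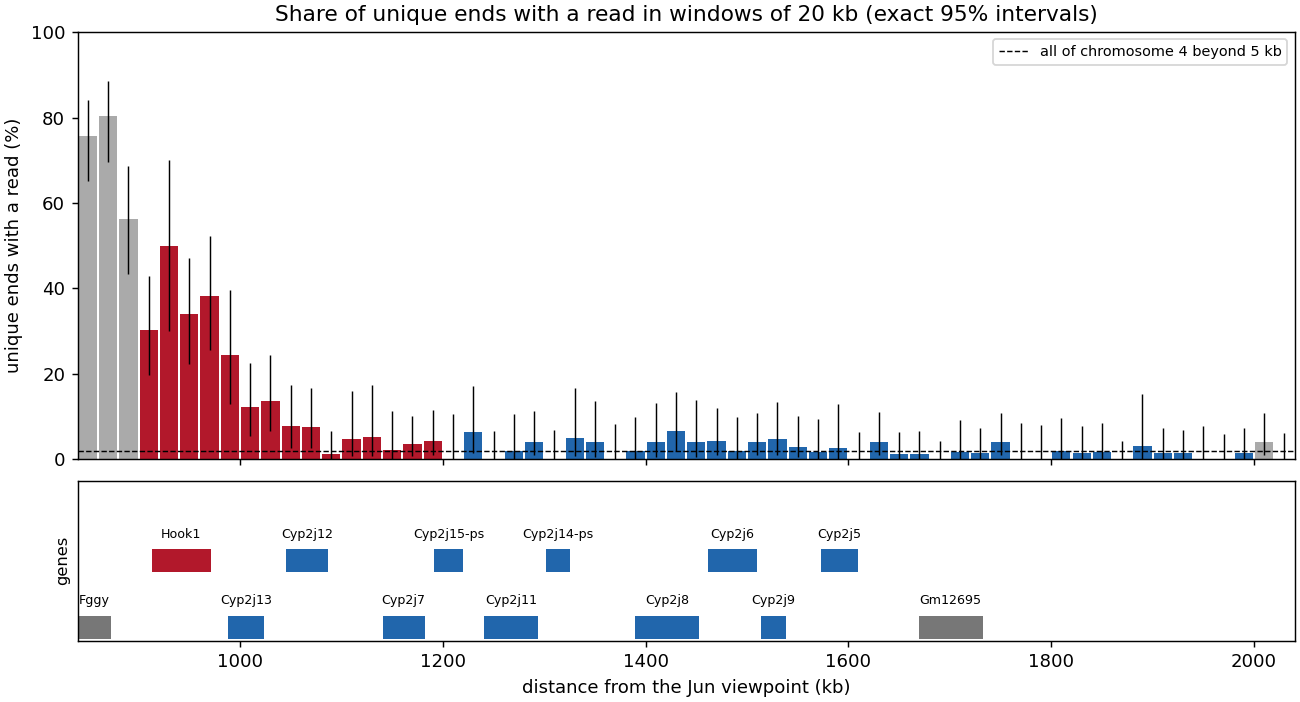
Bars give the percentage of unique ends with a read in windows of 20 kb against distance from the Jun viewpoint, with exact binomial 95% intervals; the dashed line is the chromosome's 1.91%, and gene spans are drawn below. The windows from 900 to 980 kb lie at 30.3% or above, and from 1080 kb on no window passes 6.45%.

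The second question was how the genes themselves stood. Hook1 had the highest share of the annotated genes of the stretch: 59 of its 149 unique ends had a read (39.6%, 31.7 to 47.9%), with 3737 reads or 64.2 per kb. The lncRNA gene 9530080O11Rik beside it had 7 of 24 (29.2%, 12.6 to 51.1%), with 153 reads, and its interval overlaps those of Hook1 and Cyp2j13. Ends with reads ran along the whole length of Hook1. In 3 equal lengths of Hook1 from its start to its end, 19 of 43 (44.2%), 18 of 48 (37.5%) and 22 of 58 ends (37.9%) had a read, with overlapping intervals. Between Fggy, the carbohydrate kinase gene that ends at 873 kb, and Hook1, 73 of 135 ends had a read (54.1%, 45.3 to 62.7%), and between Hook1 and Cyp2j13, 14 of 50 (28.0%, 16.2 to 42.5%).

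The 5 ends with the most reads in the near part all lay within Hook1. They held 340 reads (fragment chr4:95671708-95673190, 951 kb), 318 (chr4:95686486-95687884, 966 kb), 266 (chr4:95638282-95638712, 917 kb), 216 (chr4:95635876-95636638, 915 kb) and 209 (chr4:95681940-95683726, 962 kb), in mm9 and to within 16 bp. None stood alone: within 5 kb of each, 11 to 14 ends had a read, of 26 to 34, the end itself included. Over Hook1 as a whole, the share was 39.6%. Neither end adjoining the printed promoter site had a read. On the 625 bp fragment over the gene's start, chr4:95633960-95634586, whose lower edge is that site, the end at the upper edge, inside Hook1, had 31 reads. Within 5 kb of the start 11 of 34 ends had a read (32.4%, 17.4 to 50.5%), an interval that overlaps that of the whole gene.

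Cyp2j13, the Cyp2j gene next to Hook1, was the member of its family with the highest share. It had a read on 16 of 97 ends (16.5%, 9.73 to 25.4%), with 546 reads or 15.6 per kb, and within 5 kb of its start on 6 of 30 ends. Its interval lies below that of Hook1. It overlaps those of Cyp2j12, Cyp2j15-ps (0.98 to 13.1%) and Cyp2j9 (0.82 to 11.1%), and lies above those of the other members. Between Cyp2j13 and Cyp2j12, 8 of 71 ends had a read (11.3%) with 572 reads, and between Cyp2j12 and Cyp2j7 5 of 138 (3.62%) with 328. Cyp2j12, next in line, had 7 of 142 (4.93%, 2.00 to 9.89%), and from there outwards the intervals of all members overlap. Cyp2j7 had 4 of 133 ends (3.01%) and Cyp2j15-ps 3 of 64 (4.69%).

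In the far part Cyp2j8 had the most ends with a read, 8 of 183 (4.37%, 1.91 to 8.43%), with 574 reads or 9.05 per kb. Cyp2j6, a form known from the intestine, had 6 of 160 (3.75%), Cyp2j9, known from the brain, 3 of 76 (3.95%), Cyp2j11 4 of 155 (2.58%) and Cyp2j5, abundant in kidney and liver, 2 of 94 (2.13%). On Cyp2j14-ps no read was found on 62 ends, which allows a share of up to 4.84%. Each of these intervals overlaps the others, and the order among the far Cyp2j genes was not tested. Gm12695 beyond them had 3 of 230 ends (1.30%, 0.27 to 3.76%). Taken over the far part, ends within Cyp2j spans had a read in 23 of 761 cases (3.02%, 1.93 to 4.50%) and ends outside them in 28 of 1669 (1.68%, 1.12 to 2.42%). These intervals overlap, which does not show the shares to be equal, and their difference was not tested. On fragments with a second-cutter site alone, the share in the far Cyp2j genes was 5.60%, against 3.15% with all their unique ends. Over the whole far part, the share on such fragments was 2.90%.

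No unique end with a read lay within 5 kb of the start of Cyp2j11 (0 of 45 ends), Cyp2j8 (0 of 18), Cyp2j6 (0 of 37), Cyp2j9 (0 of 28) or Cyp2j5 (0 of 22). With so few ends, shares of up to 6.67%, 16.7%, 8.11%, 10.7% and 13.6% are allowed, so a difference from the far part's 2.10% was not detectable. At the printed site of Cyp2j6, neither adjoining end had a read. At that of Cyp2j5, 1 adjoining end had no read and the other, 10 bp from the second cutter, carries no value in the file.

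**Figure D3:**
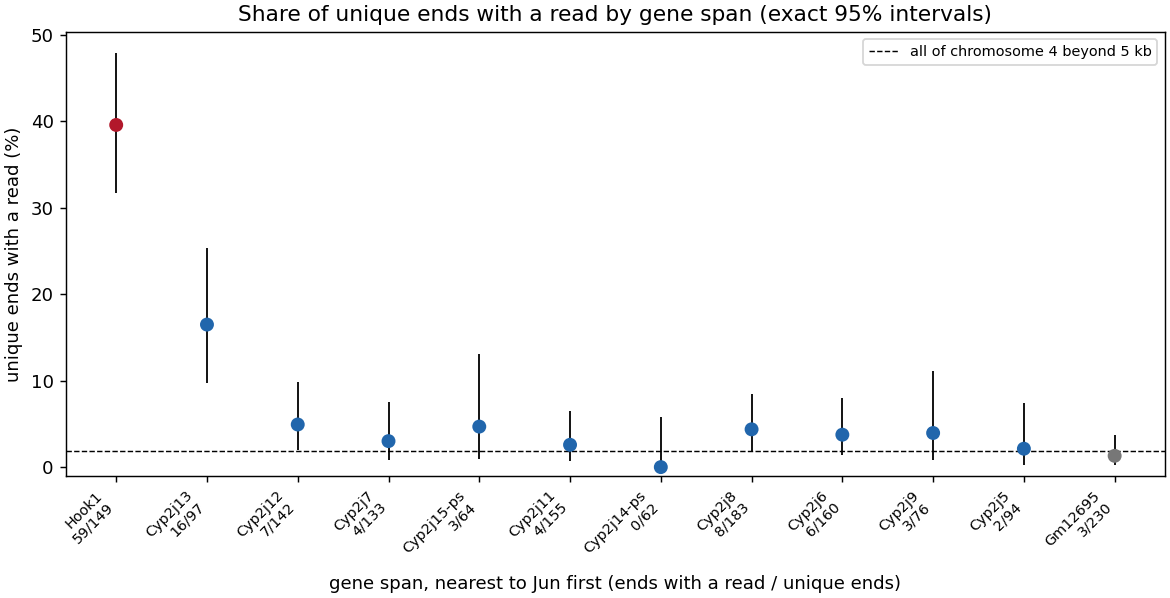
Points give the percentage of unique ends with a read within each gene span, ordered by distance from Jun, with exact binomial 95% intervals; the labels give ends with a read over unique ends, and the dashed line is the chromosome's 1.91%. Hook1 at 39.6% and Cyp2j13 at 16.5% stand above the other genes drawn, all of which lie below 5%, and 9530080O11Rik (29.2%) is not drawn. The interval of Cyp2j13 overlaps those of Cyp2j12, Cyp2j15-ps and Cyp2j9.

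The 5 ends with the most reads in the far part lay apart, except that those in Cyp2j8 lay within 5 kb of each other. The 5 ends held 213 reads (chr4:95950694-95951036, 1230 kb, in no gene), 181 (chr4:96147514-96147656, 1427 kb, in Cyp2j8), 169 (chr4:96350878-96351812, 1630 kb, in no gene), 140 (chr4:96540872-96541082, 1820 kb, in no gene) and 113 (chr4:96142674-96142736, 1422 kb, in Cyp2j8). Counting the end itself, 1 of 38 ends within 5 kb had a read around 1820 kb, 2 of 15 around 1230 kb and 3 of 46 around 1630 kb. Around the ends in Cyp2j8 the counts were 4 of 40 at 1427 kb and 5 of 44 at 1422 kb. No fragment of the far part had reads on both of its ends, 0 of 38 fragments with a read and 2 unique ends, which allows up to 7.89%. In the near part 15 of 83 such fragments did (18.1%, 10.5 to 28.0%) and from 700 to 900 kb 252 of 335 (75.2%). The share of ends with a read rose in the same order, with 2.10%, 14.1% and 81.5%. Counts of fragments with reads on both ends depend on that share and are not a separate measure of the parts.

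The longest runs of unique ends without a read all lay past the Cyp2j cluster. They covered 167 ends at chr4:96390801-96437441 (1670 to 1716 kb, within Gm12695), 152 ends at chr4:96477489-96540801 (1756 to 1820 kb) and 139 ends at chr4:96626369-96660753 (1905 to 1940 kb). The median run without a read was 4 ends in the near part and 30 in the far part.

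Reads also depended on the kind of end, a property the choice of members did not use. In the near part, ends of fragments that hold a site of the second cutter had a read in 95 of 438 cases (21.7%, 17.9 to 25.8%) and other ends in 30 of 449 (6.68%, 4.55 to 9.40%). In the far part the counts were 34 of 1174 (2.90%, 2.01 to 4.02%) and 17 of 1256 (1.35%, 0.79 to 2.16%). The same order held from 700 to 900 kb, with 93.1% and 69.1%. Fragments with such a site made up 49.4% of the ends of the near part and 48.3% of those of the far part. The median fragment was 498 bp long for near ends with a read and 280 bp for those without, and 364 and 302 bp in the far part.

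Because the sequences of the Cyp2j genes resemble each other, ends with several copies in the genome were counted apart. They made up 16.5% of the 1062 ends with a value in the near part (14.3 to 18.8%) and 18.7% of 2989 in the far part (17.3 to 20.1%), against 16.7% on chromosome 4 as a whole. Within the Cyp2j spans they were 276 of 1442 (19.1%, 17.1 to 21.3%) and in Hook1 26 of 175 (14.9%, 9.94 to 21.0%), and the intervals overlap. Cyp2j8 had the most, 77 of 260, so its unique ends sample it less fully than those of Cyp2j6, with 16 of 176.

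The third question was what the same distances gave elsewhere. On the lower side of Jun, 32 of 944 ends had a read from 900 to 1200 kb (3.39%, 2.33 to 4.75%) and 91 of 2351 from 1200 to 2000 kb (3.87%, 3.13 to 4.73%). The near part thus stood at 4.16 times the share of the other side (2.85 to 6.06), and the far part at 0.542 times its level (0.387 to 0.760). On the higher side of Ccl2, in the other library, the shares were 13.3% (10.9 to 16%) and 5.52% (4.73 to 6.39%), and on its lower side 3.52% (2.59 to 4.67%) and 5.75% (4.91 to 6.68%). The near part and the higher side of Ccl2 were not distinguished (ratio 1.06, 0.827 to 1.35), whereas the far part lay at 0.380 (0.279 to 0.518) and 0.365 (0.268 to 0.498) times the higher and lower sides of Ccl2. In reads per kb the near part (22.0) lay above the lower side of Jun (4.44) and the lower side of Ccl2 (10.2) and below the higher side of Ccl2 (27.4). The far part (2.74) lay below all of them, at 3.94 reads per kb on the lower side of Jun and 16.2 and 15.5 on the higher and lower sides of Ccl2. Reads per kb were not scaled between the libraries. From 5000 to 10000 kb they were 2.65 and 2.82 on the higher and lower sides of Jun. On those of Ccl2 they were 5.31 and 5.66, so comparisons with Ccl2 in reads per kb also carry a difference between the libraries.

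The fall from near to far was steeper here than on the 3 other sides. The ratio of near to far share was 6.71 (4.89 to 9.21) for the stretch, 2.42 (1.91 to 3.06) on the higher side of Ccl2, 0.876 (0.590 to 1.30) on the lower side of Jun and 0.613 (0.444 to 0.845) on the lower side of Ccl2. The first of these intervals lies above the other 3, which is a statement about these libraries and not a test between conditions. Farther out on the same side of Jun, from 2000 to 5000 kb, reads lay on 294 of 10538 ends (2.79%, 2.48 to 3.12%), more than in the far part by value, with a ratio of 0.752 and an interval that includes 1 (0.561 to 1.01).

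**Figure D4:**
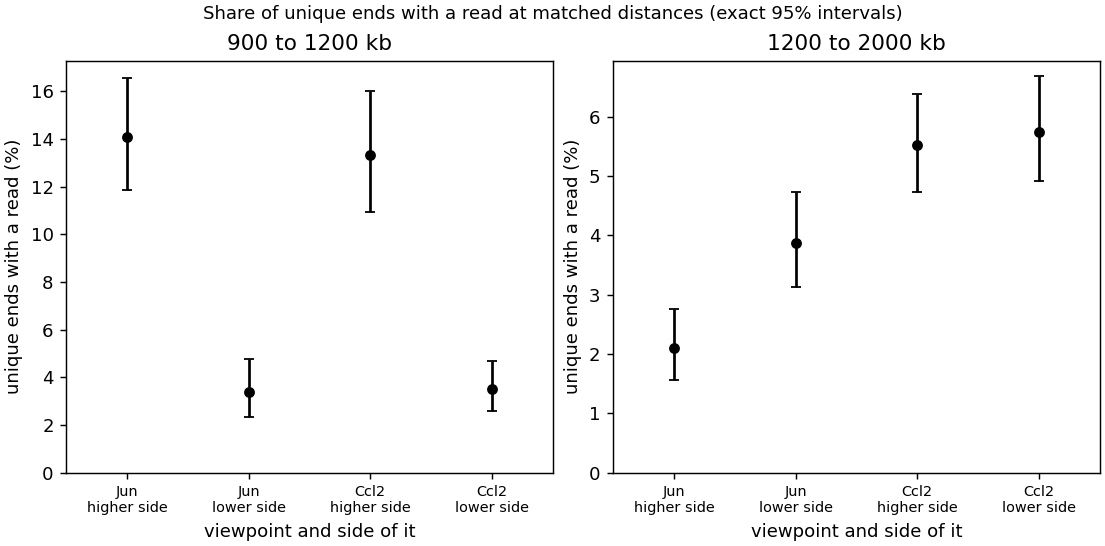
Points give the percentage of unique ends with a read at 900 to 1200 kb (left) and 1200 to 2000 kb (right) on each side of the Jun and Ccl2 viewpoints, with exact binomial 95% intervals and axes of different range. At 900 to 1200 kb the higher sides of Jun (14.1%) and Ccl2 (13.3%) stand above the lower sides, and at 1200 to 2000 kb the higher side of Jun is lowest, with 2.10%.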

How the data were processed

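4C-seq of 2 libraries was used. Per the labels' protocols, chromatin was fixed with 2% formaldehyde for 10 min and cut with DpnII and then the enzyme written as Csp61, taken here as the GTAC cutter, and 8 PCRs from 200 ng of template were pooled. Coordinates are in mm9, a build named in the submitters' processing notes. The aligner was not given in the sources used here. Deposited values are estimated counts of reads per fragment end, not scaled to depth (unit read from the values; 72.8% of values from 0.05 to 10 lie within 0.1 of a whole number), and were rounded here to whole reads. Header names stand 1 column right of their values.

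The viewpoint is the centre of the fragment whose unique end had the most reads. An end counts with at least 1 read. Spans and parts take fragments by centre. Shares carry exact (Clopper-Pearson) 95% intervals, ratios Katz log intervals, and a count of 0 a limit of 3 counts. The computation of the placement of genes, with sites matched within 12 bp, and of the intervals was checked on simulated data. The true share lay inside in 193 and 195 of 200 draws for the near and far part, and 20 of 20 shifts were recovered. The draws took ends as independent and sites from the fragment edges themselves. They therefore check the computation only, and not whether the real ends are independent or the real sites matched. Genes named are Fggy, Hook1, the Cyp2j genes and the next protein-coding gene; ends named are the 5 with the most reads per part, windows the 5 with the highest share per part, and runs the 3 longest without a read. Nfia, 9530080O11Rik and the gene next to the cluster's end were added for position. Members and lists were chosen with earlier results of these data known. Alternatives were the reads needed per end, end and fragment classes, the boundary between the parts, strong ends and depth. Python 3.11.15, numpy 2.4.6, pandas 2.3.3, scipy 1.17.1 and matplotlib 3.10.9 were used.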

Additional observations from a re-analysis of the deposited data

Results flagged for a closer look

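Ends with several copies in the genome, which enter none of the comparisons above, also carried reads, and are listed because they lie outside the main measurement. In the near part 29 of 175 such ends had a read (16.6%, exact 95% interval 11.4 to 22.9%, 1148 reads) and in the far part 28 of 559 (5.01%, 3.35 to 7.16%, 569 reads). On chromosome 4 as a whole the share was 3.14% (3128 of 99558 ends). In the far part the interval lies above that of unique ends (2.10%, 1.57 to 2.75%), and ends with over 10 copies had a read in 16 of 203 cases (7.88%, 4.57 to 12.5%), those with 2 to 10 copies in 12 of 356 (3.37%, 1.75 to 5.81%). A read on such an end may come from any of its copies, and their part in the result was not tested.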

How the results depend on the processing

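The near part kept a higher share and more reads per kb than the far part under every alternative run, with ratios of 3.96 to 8.31 in share and 6.69 to 10.8 in reads per kb. The lowest ratio, 3.96, came from counting any value above 0, chosen after seeing the data, which gave 3.79% in the far part; 41 far and 8 near ends have values that round to 0, with a median of 1.5e-10 in the far part. The near share was 11.2% with at least 10 reads per end, 21.7% on fragments with a second-cutter site, 20.5% by fragment, and 19.0% and 11.5% with the boundary at 1100 and 1300 kb; the far share was 2.90% and 3.55% on fragments with such a site and by fragment. Reads per kb, near and far, were 25.8 and 3.45 with all ends, 18.2 and 2.255 on fragments with a second-cutter site, 20.7 and 2.40 on fragments of at least 100 bp, 20.9 and 2.47 without the end with the most reads, and 31.1 and 2.87 or 17.4 and 2.61 with the boundary at 1100 or 1300 kb. With all ends, the near part stood at 0.802 times the higher side of Ccl2; the cause was not tested. The other 39 ratios to the other side and to Ccl2, thinning to the Ccl2 depth included, stayed within their intervals. Of 21 recomputed gene-span shares, 3 moved beyond their intervals: Hook1 on fragments with a second-cutter site (52.3%) and the far Cyp2j genes there (5.60%) and with any value above 0 (5.07%). Matching sites within 8 or 16 bp placed 26 of 26 as well. With 1 library per viewpoint, depth limits single genes of the far part, and differences between cultures were not measured. No paired analysis was possible because each group has 1 library.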
